A study of Mus musculus with 6 samples.

Results

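The genes that carry new proteins into the endoplasmic reticulum (ER) and on to the Golgi were followed through caerulein-induced acute pancreatitis (AP) in the mouse. The set holds 47 genes, named by a written list of the signal recognition particle, the translocon, signal peptidase, oligosaccharyltransferase, the COPII and COPI coats and ER-Golgi cargo carriers. All 47 were found among the 22556 genes of the expression tables. The list uses no expression value, but it was drawn up with earlier results of these data known. RNA-seq had been run on pancreases of 8-week-old wild type C57BL/6 mice, with 2 samples after saline (Saline), 2 after caerulein (Caerulein-AP) and 2 after polyI:C and caerulein (PolyI:C+Caerulein-AP). Each sample is called a mouse here, although the labels do not say that the samples of a group came from separate animals. Caerulein is a peptide that overstimulates the cholecystokinin receptor of the acinar cell, and polyI:C is a synthetic double-stranded RNA that mimics viral RNA. No group analysed here received polyI:C without caerulein.

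The acinar cell makes more secretory protein than almost any other cell, and each of these proteins begins its route at the ER membrane. The signal recognition particle (SRP) binds the signal peptide as it leaves the ribosome and docks at the SRP receptor, the chain is threaded through the Sec61 channel, signal peptidase cuts the signal off and oligosaccharyltransferase attaches sugar chains. COPII-coated vesicles then take cargo out of the ER, COPI-coated vesicles bring escaped ER residents and carriers back, and receptors such as the KDEL receptors and Lman1 pick the passengers.

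Expression was given as TPM, reads per gene divided by gene length and set to the same total in every mouse, so levels can be compared between genes. The 47 genes were highly expressed. Their median level over the 6 mice was 133.9 TPM against 12.7 TPM for the 16814 genes tested, and 35 of the 47 lay in the top 10% of tested genes. Sar1a, the small GTPase that starts COPII assembly, was the highest at 404 and 516 TPM in Saline mice, 467 and 525 TPM in Caerulein-AP mice and 510 and 456 TPM in PolyI:C+Caerulein-AP mice. Srp54a, the GTPase subunit of SRP, was the lowest, at 1.36 and 7.23 TPM in Saline mice, 4.63 and 3.66 TPM in Caerulein-AP mice and 2.27 and 6.01 TPM in PolyI:C+Caerulein-AP mice. Its mice of one group differed more than the groups did, and 66.6% of its 100-base stretches are also found in other genes, mainly in its near-identical copy Srp54b, so its level is uncertain.

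TPM is a relative measure, and the total was not made up of the same genes in the 3 groups. The 15 genes that each exceeded 1% of a library took 27.6% to 30.4% of all TPM in Saline mice, 16.7% to 19.0% in Caerulein-AP mice and 15.4% to 16.3% in PolyI:C+Caerulein-AP mice. Less of the total in a few genes leaves larger TPM values for the remaining genes. Against Saline mice the middle gene of the 16814 stood at a log2 fold change of 0.45 with caerulein and of 0.48 with polyI:C and caerulein. A second scaling, by median-of-ratios size factors, brought these medians to 0.06 in both comparisons. Taking the 15 genes out of the total undid only part of the shift. Copa, for example, went from 0.45 in Caerulein-AP mice to 0.24 without the 15 genes and to 0.02 under the second scaling. What made up the rest was not tested. Fold changes below are those of the deposited TPM, and a gene near 0.45 therefore moved with the bulk of the transcriptome. For each of the 47 genes that rose in Caerulein-AP mice, the value under the second scaling is given as well.

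The levels of cell type markers also moved. Of 21 acinar markers listed, 6 had values here (the other genes were not analysed here), and their summed level was 101498 and 113056 TPM in Saline mice, 24788 to 36062 TPM in Caerulein-AP mice and 14888 to 18908 TPM in PolyI:C+Caerulein-AP mice. Most of this sum came from Sycn, which encodes the zymogen granule protein syncollin. The 4 acinar markers that fell in Caerulein-AP mice were Ctrc, Cuzd1, Sycn and Rbpjl. Ptf1a and Nr5a2 did not pass there, at log2 fold changes of 0.20 and 0.16. The lower sum with polyI:C than without was not shared by most of the 6. Between the caerulein groups 4 were higher with polyI:C and 2 lower, with a median of 0.31 and Sycn at -1.05. The 7 duct markers summed to between 269 and 301 TPM, between 2357 and 2371 TPM, and between 1984 and 2147 TPM in the same order of groups, and 5 of the 7 rose more than 2-fold in Caerulein-AP mice, with Krt19 and Epcam the largest. With the second scaling 3 of the 7 did so. The 10 myeloid markers with values summed to between 351 and 523 TPM, between 2093 and 2342 TPM, and between 191 and 294 TPM, and most of the sum was Lyz2 in every mouse. Of the 9 that were tested, 6 rose more than 2-fold in Caerulein-AP mice (4 under the second scaling), and 3 fell more than 2-fold in PolyI:C+Caerulein-AP against Caerulein-AP mice. In the latter comparison 8 of the 9 had a negative log2 fold change, and S100a8 had a positive value of 0.14. A value of 0 in at least 1 mouse was found for 2 of the 10 myeloid markers and for 1 of the B and plasma cell markers. The sums ranged from 636 to 1024 TPM for 8 fibroblast and stellate markers, from 35.2 to 58.4 TPM for 3 endothelial markers and from 1169 to 2201 TPM for 6 islet markers over all 6 mice. Of the 8 fibroblast and stellate markers, 4 rose at least 2-fold in Caerulein-AP mice (3 under the second scaling). Most of their Saline sum was Dcn, which went the other way, from 671 and 540 TPM to 308 and 425 TPM. The 7 B and plasma cell markers summed to between 354 and 367 TPM in Saline mice and between 25.6 and 89.3 TPM in the other mice, and most of the Saline sum was Derl3, which acinar cells also express. The part of these shifts in the results that follow was not tested, and in whole-tissue RNA fewer cells of a type and less RNA per cell cannot be told apart.

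The first question was what AP did to the transport genes. In Caerulein-AP against Saline mice, 4 of the 47 genes fell at least 2-fold (limma, Benjamini-Hochberg adjusted p at most 0.05), against 4.03% of all tested genes, and 0 rose as much, against 18.2% of all tested genes. With the adjusted p alone, 18 fell and 11 rose, against 7.39% and 33% of all tested genes. Among all tested genes rises were thus far more frequent than falls, and among the transport genes the reverse held. The median log2 fold change of the 47 was -0.10, with a range from -1.33 for Lman1 to 0.86 for Sec11a. Without the first Caerulein-AP mouse 9 genes fell and 5 rose by adjusted p, and without the second 4 rose. Under the second scaling the median was -0.53, and 28 genes fell and 1 rose by adjusted p, against 14.9% and 17.3% of all tested genes. The 28 included all 18 that fell in the deposited TPM, while the single gene that still rose was Sec11a. The others of the 28 were Ddost, Kdelr1, Sec61g, Spcs1, Srp68, Srp72, Srpr, Stt3b, Tmed2 and Tmed10. A gene said below not to pass is one that did not pass in the deposited TPM. With the 2-fold limit the second scaling gave 9 falls and 0 rises, against 7.27% and 9.31% of all tested genes.

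**Figure D1:**
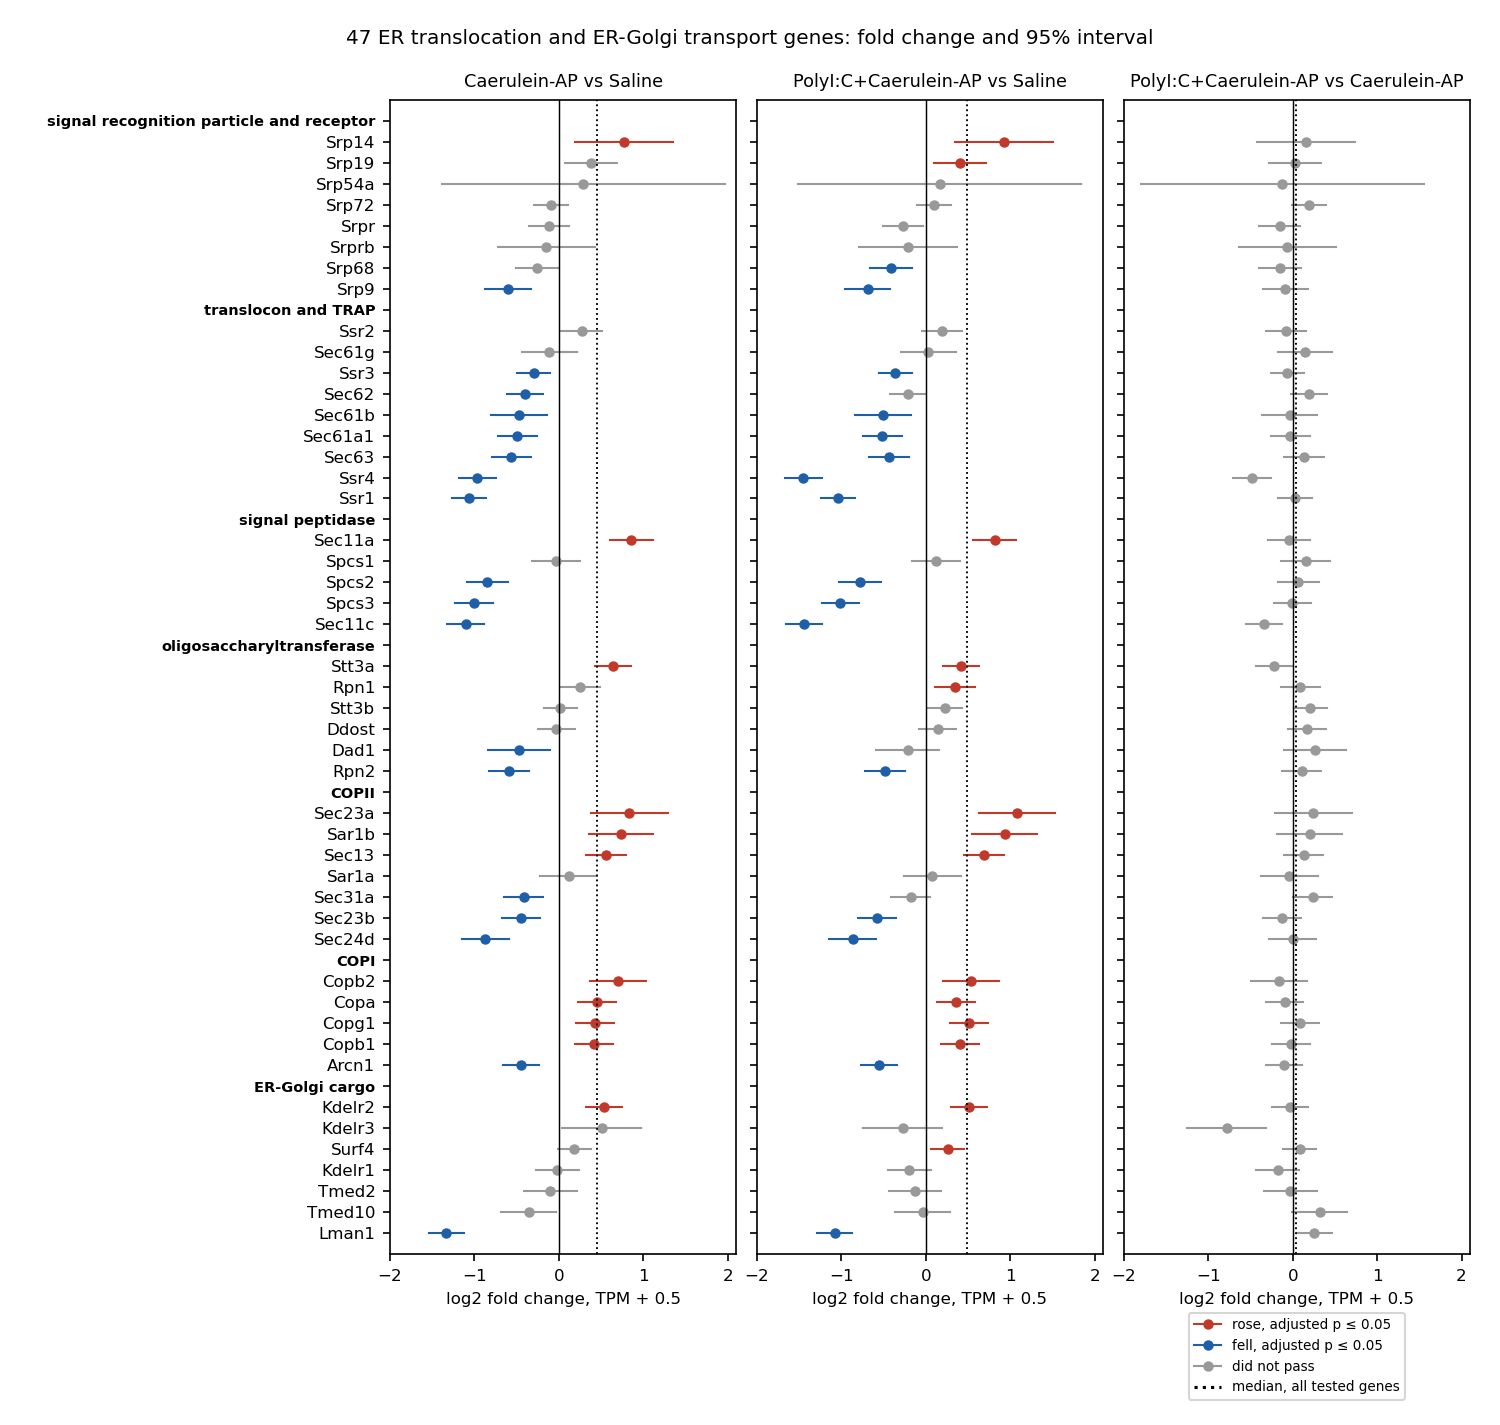
Log2 fold change (x axis, TPM + 0.5) of each of the 47 genes (rows, by role) in the 3 comparisons, with 95% intervals from limma. Red points rose and blue points fell at an adjusted p of at most 0.05, and the dotted line is the median of all 16814 tested genes, which stood at 0.45, 0.48 and 0.04. The translocon and signal peptidase rows lie mostly left of 0, 4 of the 5 COPI rows lie near the dotted line, and no point is coloured in the comparison of the caerulein groups.

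The roles did not move together. Among the listed genes, the entry groups, translocon and signal peptidase, carried most of the falls. Reduced by adjusted p were 7 of 9 translocon and translocon-associated protein (TRAP) genes and 3 of 5 signal peptidase genes. The other counts were 1 of 8 in the SRP group, 2 of 6 in oligosaccharyltransferase, 3 of 7 in COPII, 1 of 5 in COPI and 1 of 7 cargo carriers. Of 18 targeting and insertion genes outside the set, 1 was reduced and 7 rose by adjusted p, with a median log2 fold change of 0.49. Under the second scaling 3 were reduced and 3 rose, with a median of 0.08. The gene reduced in the deposited TPM was Tram1, at 1110 and 1106 TPM in Saline mice and 491 and 465 TPM in Caerulein-AP mice. The rises were 4 of 5 in COPI, 3 of 7 in COPII and 1 each in the SRP group, signal peptidase, oligosaccharyltransferase and the cargo carriers, with 0 of 9 in the translocon group. Over all tested genes the shares were 7.39% for falls and 33% for rises. Under the second scaling the only rise left in any role was that of Sec11a in signal peptidase. Median log2 fold changes ran from -0.85 in signal peptidase and -0.47 in the translocon group to 0.12 in COPII and 0.42 in COPI. The second scaling put these 4 medians at -1.27, -0.90, -0.31 and -0.00, so the order of the groups was kept, while the sign of the COPII and COPI medians was not.

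A measure that does not depend on the scaling is the share of each role within the summed TPM of the 47 genes. Translocon and TRAP genes made up 24.9% and 24.7% of that sum in Saline mice, 19.6% and 20.4% in Caerulein-AP mice and 19.3% and 19.7% in PolyI:C+Caerulein-AP mice. The share of signal peptidase was 13.0% and 13.2%, then 8.36% and 8.48%, then 7.96% and 8.28%. Both entry groups thus held less of the sum in all 4 caerulein-treated mice than in either Saline mouse. The COPI share was 7.51% and 7.82% in Saline mice and lay between 9.63% and 10.8% in the caerulein-treated mice. The COPII share was 11.8% and 13.1% in Saline mice and between 15.3% and 17.0% in the others. It weighs Sar1a and Sar1b most, the highest COPII genes, while Sec23b, Sec24d and Sec31a fell in Caerulein-AP mice. Shares are parts of a whole, so lower shares of some roles raise those of others. The 47 genes as a whole took 0.770% and 0.819% of all TPM in Saline mice, 0.707% and 0.729% in Caerulein-AP mice and 0.729% and 0.710% in PolyI:C+Caerulein-AP mice.

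**Figure D2:**
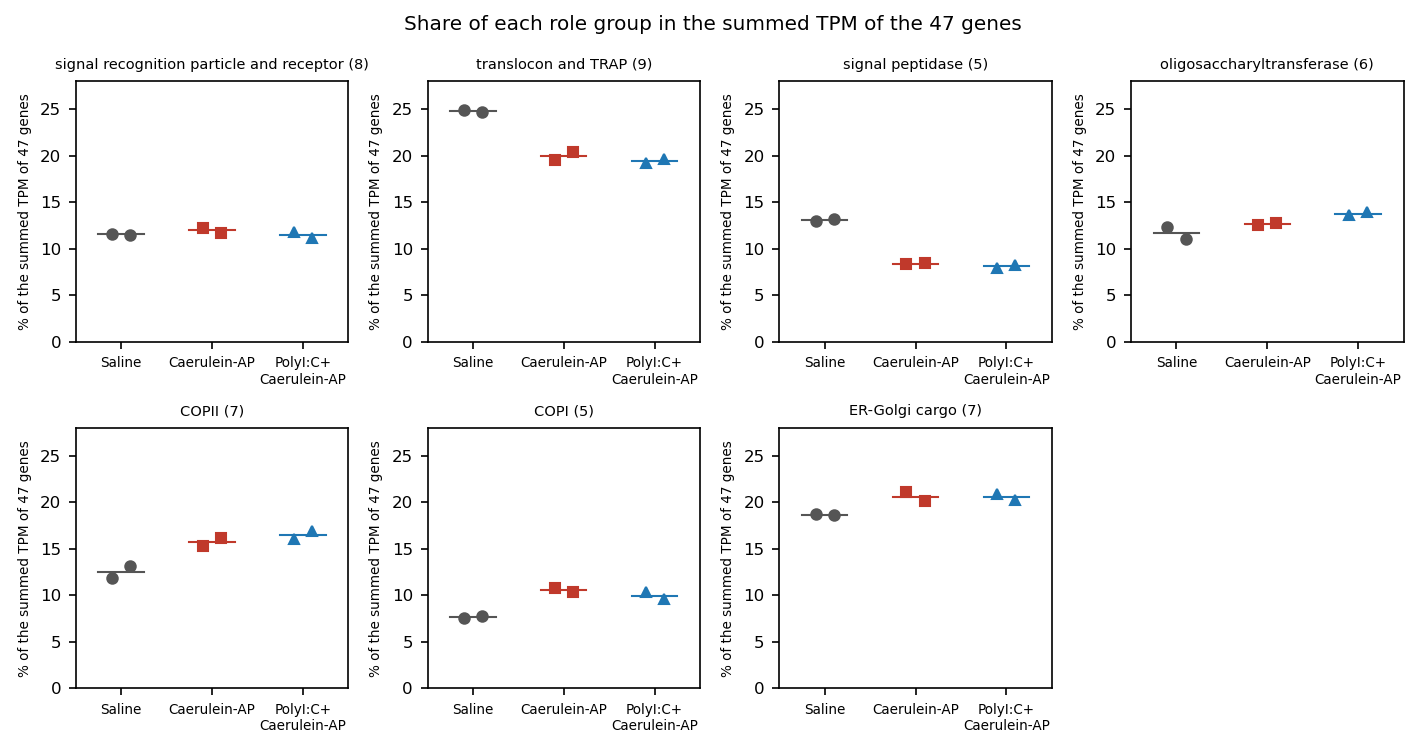
Percent of the summed TPM of the 47 genes (y axis) taken by each role group, with the number of genes in brackets, in each mouse (points) and as the group mean (lines). Translocon and signal peptidase shares lie lower in the 4 caerulein-treated mice than in the 2 Saline mice (19.3% to 20.4% against 24.7% to 24.9% for the translocon), and the COPII and COPI shares lie higher.

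SRP is a ribonucleoprotein whose Srp9 and Srp14 proteins form a heterodimer that slows translation while the ribosome is brought to the membrane. Srp9 stood at 127 and 150 TPM in Saline mice, 86.8 and 94.5 TPM in Caerulein-AP mice and 87.9 and 82.7 TPM in PolyI:C+Caerulein-AP mice. It fell in Caerulein-AP mice, with a log2 fold change of -0.60 ± 0.11 (SE, limma, adjusted p = 0.00583). Srp14 stood at 48.2 and 82.4 TPM, 106 and 110 TPM, and 127 and 114 TPM in the same order, so its partner moved the other way. Its log2 fold change was 0.78 ± 0.24 (limma, adjusted p = 0.0424), and 0.35 under the second scaling (limma, adjusted p = 0.34). Leaving out the first Saline mouse gave Srp14 a log2 fold change of 0.39 (limma, adjusted p = 0.0585). The ratio of Srp9 to Srp14 within a mouse, chosen for display after the values were seen, was 2.63 and 1.82 in Saline mice, 0.817 and 0.855 in Caerulein-AP mice and 0.692 and 0.724 in PolyI:C+Caerulein-AP mice. Of Srp9's exon bases, 14.1% overlap a gene on the opposite strand, and whether the counting used strand is not given in the sources used here. The other 6 genes did not pass the test in Caerulein-AP mice, among them both receptor subunits. Under the second scaling Srp68, Srp72 and Srpr fell by adjusted p. Srpr, the receptor's alpha subunit, ranged from 327 to 436 TPM over all mice, and Srprb, its membrane anchor, from 20.8 to 34.4 TPM.

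Sec61a1, Sec61b and Sec61g form the protein-conducting channel, Sec62 and Sec63 assist chains that arrive after synthesis, and Ssr1 to Ssr4 encode the TRAP complex beside the channel. Sec61a1, the pore itself, stood at 172 and 179 TPM in Saline mice, 120 and 130 TPM in Caerulein-AP mice and 129 and 116 TPM in PolyI:C+Caerulein-AP mice, a log2 fold change of -0.49 ± 0.10 in AP (limma, adjusted p = 0.00723). Sec61b, Sec62 and Sec63 fell by 0.47, 0.40 and 0.56 on the log2 scale, while Sec61g had a log2 fold change of -0.11 (limma, adjusted p = 0.551) and fell by adjusted p under the second scaling. The fall of Sec61b was the least stable of these, and without the first Caerulein-AP mouse it was -0.30 (limma, adjusted p = 0.16).

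Of the 4 TRAP subunits, Ssr1, Ssr3 and Ssr4 fell. Ssr1 was 218 and 224 TPM in Saline mice, 104 and 107 TPM in Caerulein-AP mice and 105 and 110 TPM in PolyI:C+Caerulein-AP mice. Both Saline mice lay far above the 4 caerulein-treated mice, and the log2 fold change in AP was -1.07 ± 0.08 (limma, adjusted p = 0.000222). Ssr4 was 272 and 298 TPM, 142 and 149 TPM, and 102 and 106 TPM. It fell by 0.97 in Caerulein-AP mice (limma, adjusted p = 0.000454) and was lower still with polyI:C, at -1.45 ± 0.09 against Saline mice (limma, adjusted p = 0.000127). Ssr3 fell by 0.30 (limma, adjusted p = 0.0267). Ssr2 stood at 128 and 124 TPM, 149 and 155 TPM, and 137 and 150 TPM, and its log2 fold change of 0.27 did not pass (limma, adjusted p = 0.0726) and was -0.16 under the second scaling. Within a mouse, the ratio of Ssr1 to Ssr2 was 1.71 and 1.81 in Saline mice and between 0.693 and 0.761 in the 4 caerulein-treated mice, and that of Ssr4 to Ssr2 was 2.13 and 2.41 against 0.704 to 0.961. These subunit ratios were also chosen after the values were seen.

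Within signal peptidase Sec11c fell and Sec11a rose. These genes encode alternative catalytic subunits, and Spcs1, Spcs2 and Spcs3 encode the accessory subunits. Sec11c stood at 291 and 321 TPM in Saline mice, 145 and 138 TPM in Caerulein-AP mice and 113 and 111 TPM in PolyI:C+Caerulein-AP mice. In AP it fell by 1.11 ± 0.09 on the log2 scale (limma, adjusted p = 0.000261). Sec11a stood at 35.2 and 36.9 TPM, 62.1 and 69.6 TPM, and 62.5 and 65.0 TPM, with all 4 caerulein-treated mice above both Saline mice. Its log2 fold change was 0.86 ± 0.11 (limma, adjusted p = 0.00112), and it was 0.43 under the second scaling (limma, adjusted p = 0.022). Spcs3 was lower as well, with 507 and 545 TPM, 249 and 274 TPM, and 266 and 255 TPM. This gave a log2 fold change of -1.01 ± 0.09 (limma, adjusted p = 0.000392). Spcs2 fell by 0.85 (limma, adjusted p = 0.0011), from 73.9 and 76.2 TPM to 42.3 and 40.8 TPM. Spcs1 stayed between 92.4 and 111 TPM in all 6 mice, and under the second scaling it fell in AP by adjusted p.

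**Figure D3:**
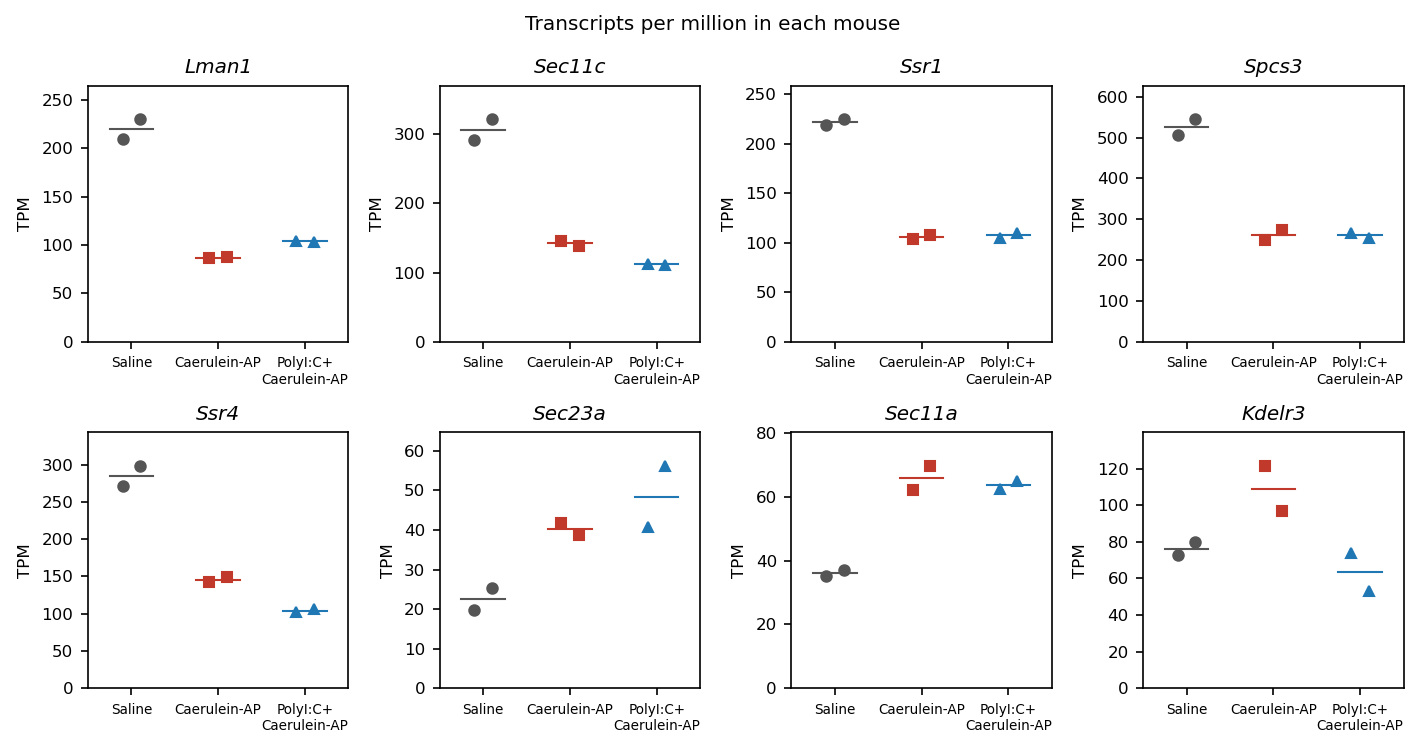
TPM (y axis, from 0) in each of the 2 mice of each group (points) with the group mean (lines) for the 6 genes past 2-fold in at least one comparison, for Sec11a and for Kdelr3. Lman1, Sec11c, Ssr1, Spcs3 and Ssr4 lie lower in all 4 caerulein-treated mice, Sec11a lies higher at 62.1 to 69.6 TPM, and Kdelr3 is highest in Caerulein-AP mice.

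Oligosaccharyltransferase transfers the preformed sugar chain onto asparagines, with Stt3a as the catalytic subunit of the complex that sits at the translocon and Stt3b as that of the complex that acts later. Stt3a was 64.0 and 70.0 TPM in Saline mice, 102 and 107 TPM in Caerulein-AP mice and 90.9 and 88.8 TPM in PolyI:C+Caerulein-AP mice. It rose by 0.64 ± 0.09 in AP (limma, adjusted p = 0.00183), and under the second scaling the value was 0.21 (limma, adjusted p = 0.13). Stt3b lay between 242 and 255 TPM in the first 2 groups and at 293 and 287 TPM with polyI:C. Rpn2, a subunit needed by both complexes, was 189 and 167 TPM, 115 and 120 TPM, and 123 and 130 TPM, and it fell by 0.59 ± 0.10 (limma, adjusted p = 0.00373). Dad1 fell by 0.48 (limma, adjusted p = 0.0466), a call lost when any one of 5 mice was left out. Ddost and Rpn1 did not pass in AP. Under the second scaling Ddost and Stt3b fell by adjusted p.

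Before the coat genes are described, their promoters are shown, since XBP1 and ATF6, transcription factors of the unfolded protein response, are known to act on secretory genes. RefSeq promoters (GRCm38.p6, 250 bases before to 50 after a gene start) were at hand for 37 of the 47 genes. The letters TGACGTGG, the core of the element bound by these factors, were searched on both strands and found in 5 of the 37, or 13.5%, against 0.976% of the 10856 tested genes with a promoter and 0.714% of all 27025. Among 72 other secretory pathway genes with a promoter it was found in 5, or 6.94%. The 5 are Sec24d and Sec23a of the COPII coat, Copb1 and Copb2 of the COPI coat and the KDEL receptor Kdelr3. The shorter core ACGTG, which overlaps it, was found in 20 of the 37 (54.1%), against 44.4% of the other secretory pathway genes and 28.5% of tested genes. The ERSE, the other element known for these factors and written as CCAAT, 9 further bases and CCACG, was found in 0 of the 37 and in 0.129% of tested genes. The motifs were chosen from general knowledge, and a match is a description of these letters, not a binding site. The stretch around the match is given for 4 of the 5 genes, written 5′ to 3′ on the strand of the gene, with the motif or its reverse complement in capitals.
Sec24d (chr3:123267445-123267495, + strand): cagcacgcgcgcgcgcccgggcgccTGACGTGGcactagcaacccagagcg
Copb1 (chr7:114254681-114254733, - strand): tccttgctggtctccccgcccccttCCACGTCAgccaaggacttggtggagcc
Copb2 (chr9:98563699-98563731, + strand): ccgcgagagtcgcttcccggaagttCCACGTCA
Kdelr3 (chr15:79516353-79516407, + strand): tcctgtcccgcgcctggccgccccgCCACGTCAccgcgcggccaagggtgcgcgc
These 4 matches lie close to the RefSeq start. They begin 26, 28 and 30 bases before it in Sec24d, Copb1 and Kdelr3 and 7 bases before it in Copb2. Of the 5 genes, Sec24d fell in AP under both scalings and Kdelr3 did not pass. Sec23a, Copb1 and Copb2 rose in the deposited TPM, and none of these rises passed under the second scaling.

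COPII coats are built when Sar1 recruits Sec23-Sec24, which binds cargo, and then the Sec13-Sec31 cage. Sec23a was 19.8 and 25.3 TPM in Saline mice, 41.8 and 38.8 TPM in Caerulein-AP mice and 40.7 and 56.2 TPM in PolyI:C+Caerulein-AP mice. In AP the log2 fold change was 0.83 ± 0.19 (limma, adjusted p = 0.0129) and 0.41 under the second scaling (limma, adjusted p = 0.17). Its paralog Sec23b was 80.0 and 87.6 TPM, 59.4 and 63.1 TPM, and 55.2 and 56.7 TPM, and it fell by 0.45 ± 0.10 (limma, adjusted p = 0.00996). Sec24d, a cargo-binding isoform, was 52.5 and 51.1 TPM, 29.2 and 27.1 TPM, and 26.1 and 30.4 TPM, a log2 fold change of -0.87 ± 0.12 (limma, adjusted p = 0.00154). Sar1b rose by 0.74, from 135 and 172 TPM to 239 and 270 TPM (limma, adjusted p = 0.0109), and its value was 0.31 under the second scaling (limma, adjusted p = 0.22). Sec13 rose by 0.56 (limma, adjusted p = 0.0046) and stood at 0.13 under the second scaling (limma, adjusted p = 0.38), while its cage partner Sec31a fell by 0.42 (limma, adjusted p = 0.0132). For Sec23a, 8.9% of the exon bases overlap a gene on the opposite strand.

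The COPI coat is a heptamer recruited by Arf1. Copb2, the beta-prime subunit, was 138 and 182 TPM in Saline mice, 259 and 257 TPM in Caerulein-AP mice and 242 and 219 TPM in PolyI:C+Caerulein-AP mice. It rose by 0.70 ± 0.14 (limma, adjusted p = 0.00734), and Copa, Copb1 and Copg1 rose by 0.45, 0.42 and 0.42, close to the median shift of 0.45 of all tested genes. Under the second scaling none of the 4 rises passed, with values of 0.27 for Copb2, 0.02 for Copa, -0.01 for Copb1 and -0.00 for Copg1, the last pair with the sign turned. Arcn1, the delta subunit, moved against them with 159 and 174 TPM, 123 and 121 TPM, and 115 and 111 TPM, a fall of 0.45 ± 0.09 (limma, adjusted p = 0.00695). The ratio of Arcn1 to Copa, chosen after the values were seen, was 1.56 and 1.63 in Saline mice and between 0.814 and 0.881 in the 4 caerulein-treated mice.

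Among the cargo carriers, Lman1 (also called ERGIC-53), the lectin that takes glycoproteins out of the ER, had the largest fall of the 47 genes. Levels were 210 and 230 TPM in Saline mice, 86.8 and 87.3 TPM in Caerulein-AP mice and 105 and 103 TPM in PolyI:C+Caerulein-AP mice. The log2 fold change was -1.33 ± 0.09 (limma, adjusted p = 0.000125). Of the KDEL receptors, which return ER residents from the Golgi, Kdelr2 alone passed in AP in the deposited TPM. It was 267 and 286 TPM, 399 and 405 TPM, and 405 and 382 TPM, and rose by 0.54 ± 0.09 (limma, adjusted p = 0.00354), with 0.11 under the second scaling (limma, adjusted p = 0.4). Kdelr1 was 90.7 and 97.3 TPM, 93.6 and 92.1 TPM, and 83.3 and 80.8 TPM, and under the second scaling it fell in AP by adjusted p. Kdelr3 was 72.7 and 79.8 TPM, 121 and 96.6 TPM, and 73.9 and 53.4 TPM, higher in both Caerulein-AP mice than in the other 4. Its log2 fold change in AP was 0.51 ± 0.20 and did not pass (limma, adjusted p = 0.0832). Tmed2, Tmed10 and Surf4, which sort membrane and luminal cargo, did not pass in AP, and under the second scaling Tmed2 and Tmed10 fell by adjusted p.

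Related genes were compared as ratios within each mouse, which no scaling of the library can move. Sec11c to Sec11a was 8.28 and 8.70 in Saline mice, 2.34 and 1.99 in Caerulein-AP mice and 1.81 and 1.71 in PolyI:C+Caerulein-AP mice. The ratio in AP was 0.254 times that of the Saline mice, with Sec11c reduced and Sec11a raised. Sec23a to Sec23b was 0.247 and 0.289, then 0.705 and 0.615, then 0.736 and 0.990, which is 2.46 times the Saline ratio in AP and 3.20 times with polyI:C. Sec24d to the sum of Sec24a, Sec24b and Sec24c was 0.347 and 0.364, then 0.127 and 0.131, then 0.115 and 0.140. Sar1a to Sar1b was 3.0 in both Saline mice, 1.95 and 1.94 in Caerulein-AP mice and 1.92 and 1.42 in PolyI:C+Caerulein-AP mice. In all 4 ratios the caerulein-treated mice lay apart from the Saline mice on one side.

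The other 3 ratios were those of the oligosaccharyltransferase subunits and the KDEL receptors. Stt3a to Stt3b was 0.253 and 0.290 in Saline mice, 0.417 and 0.418 in Caerulein-AP mice and 0.310 in both PolyI:C+Caerulein-AP mice. Kdelr2 to Kdelr1 was 2.95 and 2.94, then 4.26 and 4.40, then 4.86 and 4.72. Kdelr3 to Kdelr1 was 0.801 and 0.820, then 1.30 and 1.05, then 0.887 and 0.661, and it overlapped between the Saline and PolyI:C+Caerulein-AP mice. All 7 ratios gave p = 0.333 in Caerulein-AP against Saline mice by the exact two-sided permutation test, the smallest p that 2 against 2 mice allow, so none could pass. Between the caerulein groups the ratio of Sec24d to its paralogs overlapped (exact permutation p = 1), and the other 6 did not (exact permutation p = 0.333 each).

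**Figure D4:**
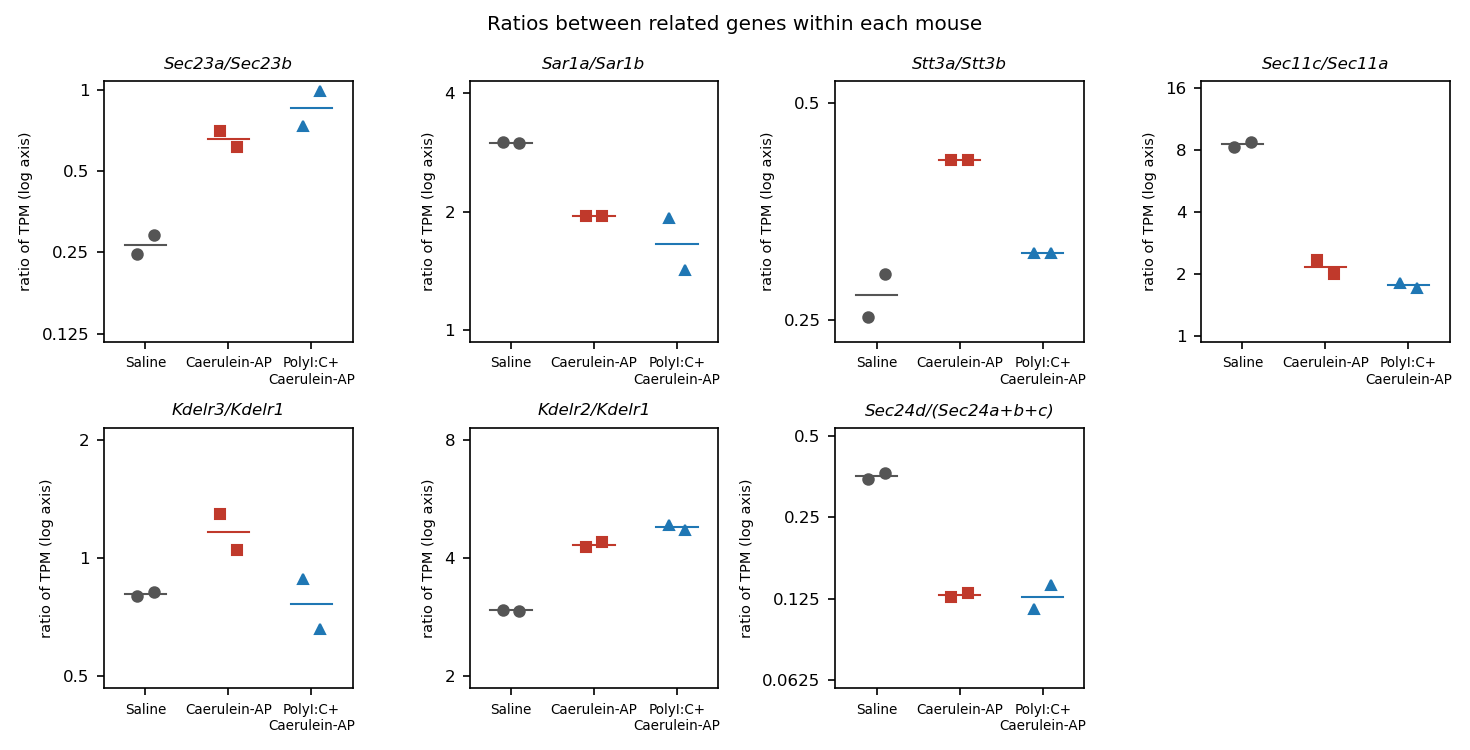
Ratio of TPM between related genes (y axis, log scale) in each of the 2 mice of each group (points), with the geometric mean (lines). Sec11c to Sec11a lies at 8.28 and 8.70 in Saline mice and at 1.71 to 2.34 in the 4 caerulein-treated mice, Sec23a to Sec23b lies higher in all 4, and Stt3a to Stt3b lies highest in Caerulein-AP mice.

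The second question was what polyI:C pretreatment changed. In PolyI:C+Caerulein-AP against Caerulein-AP mice, 0 of the 47 genes rose and 0 fell at an adjusted p of at most 0.05 in limma, with or without the 2-fold limit. Over all tested genes the shares were 0.44% and 0.404% with the limit and 0.714% and 0.517% without it. At an unadjusted p under 0.05, 3 genes were higher (Stt3b, Sec31a and Lman1) and 4 lower (Ssr4, Sec11c, Stt3a and Kdelr3). The median log2 fold change of the 47 was -0.00, with a range from -0.78 for Kdelr3 to 0.32 for Tmed10, against a median of 0.04 for all tested genes. The 95% interval lay within 2-fold in either direction for 45 of the 47 and within 1.5-fold for 38. The genes whose interval reached 2-fold were Srp54a and Kdelr3. Between the 2 groups of mice, 16 genes were higher in both PolyI:C+Caerulein-AP mice and 11 were lower, against 27.7% and 22.1% of all tested genes.

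The genes closest to the threshold were lower with polyI:C. Ssr4, at 142 and 149 TPM without and 102 and 106 TPM with polyI:C, had a log2 fold change of -0.48 with an interval from -0.71 to -0.26 (limma, adjusted p = 0.0707). In a fit of these 4 mice alone the adjusted p of limma was 0.0497. Sec11c had -0.34 (limma, adjusted p = 0.153), and Kdelr3 had -0.78 with an interval from -1.25 to -0.31 (limma, adjusted p = 0.141). Lman1 was higher, at 0.26 with an interval from 0.05 to 0.46 (limma, adjusted p = 0.257).

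Both caerulein groups share the Saline mice as controls, so their comparisons with Saline mice are not independent and are given side by side. In PolyI:C+Caerulein-AP against Saline mice, 5 of the 47 genes fell and 1 rose at least 2-fold (limma, adjusted p at most 0.05), against 2.97% and 16.9% of all tested genes. With the adjusted p alone 16 fell and 14 rose, against 5.8% and 33.4%. Under the second scaling 10 fell and 0 rose at least 2-fold, against 5.84% and 7.88% of all tested genes, and 26 fell and 1 rose by adjusted p, against 12.5% and 14.9%. The count of 14 rises was 6 to 7 when either mouse of either caerulein group was left out and 9 without the first Saline mouse, and that of 16 falls was 10 without the second PolyI:C+Caerulein-AP mouse. The median of the 47 was -0.13, and -0.58 under the second scaling. The 5 were Sec11c at -1.45, Ssr4 at -1.45, Lman1 at -1.08, Ssr1 at -1.04 and Spcs3 at -1.01. The gene that rose was Sec23a at 1.08 ± 0.19 (limma, adjusted p = 0.00495). No gene passed 2-fold upward without the first Saline or the second PolyI:C+Caerulein-AP mouse, 2 did without the first PolyI:C+Caerulein-AP mouse, and 3 did without the second Saline mouse. Sec23a was at 0.63 under the second scaling (limma, adjusted p = 0.062). Srp19, Rpn1 and Surf4 rose by 0.41, 0.35 and 0.26 by adjusted p alone, and under the second scaling they were at -0.04, -0.11 and -0.19 and did not pass.

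Calls were followed through 17 alternative settings. The second scaling and the total without the 15 largest genes are among them, and both lowered the median of the 47 genes against Saline mice, a shift that works against the rises. Of the 18 genes that fell in Caerulein-AP mice, 9 kept the call in all of them, namely Sec63, Ssr1, Ssr4, Spcs2, Spcs3, Sec11c, Rpn2, Sec24d and Lman1. Of the 11 that rose, only Sec11a did so. When only the leaving out of each mouse in turn was counted, 9 of the 18 falls and 4 of the 11 rises kept the call, the latter being Sec11a, Stt3a, Sec13 and Kdelr2. In PolyI:C+Caerulein-AP against Saline mice, 9 of 16 falls and 1 of 14 rises were kept in all settings, and the rise was again that of Sec11a, while 9 falls and 5 rises kept the call as each mouse was left out. The difference between falls and rises was not tested. Each other call was lost in at least 1 setting.

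The genes are spread over the genome. Members closer than 500 kb to each other on a chromosome (GRCm38) were found in 2 places. On chromosome 18, Sec11c and Lman1, the genes with the largest falls of their groups, are 163 kb apart, with 0 tested genes between them. On chromosome 6, Copg1 and Rpn1 are 171 kb apart and Rpn1 and Sec61a1 398 kb apart, and in AP Copg1 rose, Rpn1 did not pass and Sec61a1 fell.

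The rest of the pathway was read from a wider list of 84 genes with values. In Caerulein-AP against Saline mice 8 of the 84 rose and 11 fell at least 2-fold (limma, adjusted p at most 0.05), against 18.2% and 4.03% of all tested genes. By adjusted p alone 33 rose and 19 fell, against 33% and 7.39%, with a median log2 fold change of 0.29. Under the second scaling 2 rose and 16 fell at least 2-fold, against 9.31% and 7.27% of all tested genes, 12 rose and 30 fell by adjusted p, against 17.3% and 14.9%, and the median was -0.14. The largest falls were those of Bhlha15, Tmed6 and Magt1. Tmed6, a p24-family cargo protein, stood at 4618 and 4607 TPM in Saline mice, 1114 and 1018 TPM in Caerulein-AP mice and 749 and 741 TPM in PolyI:C+Caerulein-AP mice, a log2 fold change of -2.11 in AP and -2.63 with polyI:C. Mcfd2, the calcium-binding partner of Lman1, was 584 and 742 TPM, 290 and 309 TPM, and 207 and 212 TPM, and was at -1.65 with polyI:C. Magt1 and Tusc3, exchangeable oxidoreductase subunits of the Stt3b complex, moved apart, with 230 and 266 TPM, 110 and 93.7 TPM, and 95.1 and 95.8 TPM for Magt1 and 9.08 and 10.5 TPM, 28.6 and 24.8 TPM, and 35.1 and 34.6 TPM for Tusc3. The largest rises beside Tusc3 (1.40) were Cnih4, a cargo receptor, at 1.91 and Creb3, an ER-anchored transcription factor, at 1.45, and with polyI:C also Creb3l4 at 1.95. With the second scaling Cnih4 and Creb3 stayed past 2-fold in AP, Tusc3 was at 0.99 in AP and passed by adjusted p alone (limma, adjusted p = 0.00437), and Creb3l4 with polyI:C did not pass, at 1.58 (limma, adjusted p = 0.122).

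Bhlha15 (Mist1), the transcription factor that maintains the secretory architecture of the acinar cell, was the one gene of the wider list past 2-fold between the caerulein groups. It stood at 391 and 326 TPM in Saline mice, 53.6 and 46.4 TPM in Caerulein-AP mice and 161 and 171 TPM in PolyI:C+Caerulein-AP mice. It fell by 2.83 ± 0.12 in AP (limma, adjusted p = 3.95e-05) and was 1.73 ± 0.12 higher with polyI:C than without (limma, adjusted p = 0.00398), still below the Saline mice at -1.10. The acinar factor Rbpjl was 238 and 195 TPM, 104 and 79.8 TPM, and 196 and 191 TPM, and was also higher with polyI:C, by 1.08 (limma, adjusted p = 0.0335). By adjusted p alone Copz2, a COPI zeta subunit, fell by 0.78 with polyI:C (limma, adjusted p = 0.0335), from 64.1 and 67.7 TPM to 40.2 and 36.3 TPM. Xbp1, named here after its values were seen because of the promoter motif, stood at 798 and 850 TPM in Saline mice, 1692 and 1631 TPM in Caerulein-AP mice and 1662 and 1515 TPM in PolyI:C+Caerulein-AP mice. It rose by 1.01 ± 0.10 in AP (limma, adjusted p = 0.00042), and its value was 0.58 under the second scaling (limma, adjusted p = 0.00512). Atf6, the other factor named with the motif, went the other way. Its levels were 176 and 196 TPM in Saline mice, 99.1 and 91.9 TPM in Caerulein-AP mice and 98.6 and 109 TPM in PolyI:C+Caerulein-AP mice.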

How the data were processed

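Per the labels, 6 pancreas RNA samples (2 per group) were sequenced. The submitters' processing notes name Trimmomatic, STAR, HTSeq, DESeq2 and the genome build mm10, without versions. The authors deposited TPM per gene, and how these were made from counts is not given in the sources used here. TPM keeps no read depth, so no counting error is given. The labels do not state that samples of a group came from separate animals. Each is called a mouse here, and p-values measure the spread between these samples only.

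Of 22556 identifiers, 22490 matched GENCODE M21 (GRCm38), the source of symbols and exon lengths. The 16814 genes averaging 1 TPM or more over the mice were fitted with limma 3.58.1 (R 4.3.3) on log2(TPM + 0.5), 1 coefficient per group, variance prior following log2(mean TPM × exon length + 1), Benjamini-Hochberg adjustment over all tested genes. Calls used an adjusted p of at most 0.05, with and without a 2-fold change. The fit was checked on simulated data with equal numbers of genes raised and lowered. No shift of the median gene was built in, so its effect on the calls was not checked there. Ratios, promoters and figures used Python 3.11.15.

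The members and all lists were chosen with earlier results of these data known. Values per mouse were named by rule: members past 2-fold, the highest and lowest member, related gene sets, the largest rise and fall of each role, and at most 3 genes per direction and comparison of other lists. Alternatives were pseudocounts, filters, scalings, priors, a replicate block and leaving out each mouse. A rescaling without the 15 largest genes was added after seeing the data. Digestive enzyme genes without values were not analysed here. One promoter stretch is not reported here.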

Additional observations from a re-analysis of the deposited data

How the results depend on the processing

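Scaling mattered most. With median-of-ratios size factors, the genes reduced in Caerulein-AP against Saline mice numbered 9 at least 2-fold and 28 by adjusted p, 1 gene was raised and the median log2 fold change was -0.53. Against Saline mice, PolyI:C+Caerulein-AP mice had 10 genes reduced at least 2-fold and 26 by adjusted p, 0 raised at least 2-fold and 1 by adjusted p, with a median of -0.58. The direction turned for Copb1 (-0.012) and Copg1 (-0.0018) in Caerulein-AP mice and for Copa (-0.10), Surf4 (-0.19), Rpn1 (-0.11), Copb1 (-0.053), Stt3a (-0.031) and Srp19 (-0.042) with polyI:C, each against Saline mice. Leaving the 15 genes over 1% out of the total, a setting chosen after seeing the data, gave 7 reduced at least 2-fold, 7 raised by adjusted p and a median of -0.31 in Caerulein-AP mice, and 0 raised at least 2-fold, 4 by adjusted p and a median of -0.37 with polyI:C.

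A prior without a trend gave 5 raised and 11 reduced by adjusted p in Caerulein-AP mice and 6 raised with polyI:C against Saline mice. Fits of only the 4 mice compared gave 8 raised with polyI:C against Saline mice and 1 reduced, Ssr4, between the caerulein groups, where unadjusted p gave 3 raised and 4 reduced. The cause was not tested. The pseudocounts of 0.1 and 1 and both filters moved no count by over 1.5 times. The 7 ratios moved by at most 0.04 on the log2 scale with a pseudocount of 1.

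With each mouse left out, the genes raised in Caerulein-AP mice numbered 4 to 13 by adjusted p and 0 to 2 at least 2-fold, those reduced by adjusted p 9 to 18, and the median ranged from -0.16 (without the first Saline mouse) to -0.015 (without the second). With polyI:C against Saline mice, 6 to 12 were raised by adjusted p, 0 to 3 at least 2-fold and 10 to 16 reduced by adjusted p, and the median ranged from -0.15 to 0.039, the latter without the second Saline mouse. The lone mouse of a group was then assumed to vary like the others.

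The labels give each group replicates 1 and 2 without saying what the numbers share, and deviations of same-numbered mice correlated at 0.01, -0.00 and 0.04 between groups. The replicate block changed the calls over all genes from 3730 to 3646, 142 to 124 and 3338 to 3284, and ended the call of 1 of 62 results on single genes, that of Surf4 with polyI:C (0.26, limma, adjusted p = 0.0558). With 2 mice a group, small differences in low genes such as Srp54a were not detectable.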
